A study of Mus musculus with 2 samples.

Results

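The genes described here are *Ccn1*, *Ccn2*, *F3*, *Gadd45b*, *Ajuba* and *Amotl2*, 6 targets of the YAP/TEAD transcription complex, named as a group and matched by gene identifier among the 31053 genes of the deposited count table. They were followed in small intestinal organoids given NRG1, EREG or EGF. The crypts came from wild-type C57BL/6J mice, 1 mouse in each of 2 experiments, and no mutant allele or transgene is named for these mice. All organoids were grown in Matrigel with Noggin, R-spondin 1 and N-acetylcysteine, with EGF at 50 ng/ml for 3 days and the ROCK inhibitor Y-27632 at the start of culture. They then spent 24 h without EGF and 24 h with NRG1, EREG or EGF at 100 ng/ml, so that EGF is the ligand against which the others are compared. Each ligand had 3 libraries in each experiment, 6 libraries per ligand and 18 in all. The sources call these libraries replicates and do not say that they were separate cultures, so p-values measure only how far these libraries vary, possibly for technical reasons, and not how far mice vary.

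YAP and its relative TAZ are coactivators without a DNA-binding domain. When the LATS kinases of the Hippo pathway phosphorylate them they are held in the cytoplasm. When they are not phosphorylated they enter the nucleus and bind TEAD factors, often at enhancers that also carry AP-1. In the gut epithelium this pathway is known for its role in repair after injury, and *Ccn1* and *Ccn2* are the targets most often used to read it. EGF and EREG bind the receptor EGFR, whereas NRG1 binds ERBB3 and ERBB4 and signals with ERBB2. Each of the genes also answers to other signals, so that a change in them is not by itself a measure of YAP or TEAD.

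The proximal promoters are shown first, because the short motifs bound by TEAD and AP-1 are the sequence features by which such targets are usually described. RefSeq promoters of GRCm38.p6, from 250 bases before to 50 bases after the annotated start, were matched by symbol for 5 of the 6 genes. They were searched on both strands for GGAATG (TEAD), TGANTCA (AP-1, which reads alike on both strands) and the CArG box of serum response factor. Capitals mark the match in each stretch of 30 bases, written 5′ to 3′ on the strand of the gene, where CATTCC is GGAATG read on the other strand.
Ccn1 TEAD, chr3:145650071-145650100, minus strand: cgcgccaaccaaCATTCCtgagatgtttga
Ajuba TEAD far, chr14:54577830-54577859, minus strand: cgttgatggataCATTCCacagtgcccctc
Ajuba TEAD near, chr14:54577808-54577837, minus strand: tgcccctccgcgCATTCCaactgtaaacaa
Amotl2 TEAD, chr9:102717727-102717756, plus strand: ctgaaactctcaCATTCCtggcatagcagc
F3 AP-1 far, chr3:121723380-121723409, plus strand: cgcggcgctgtTGAATCAcggttgagtcac
F3 AP-1 near, chr3:121723391-121723420, plus strand: tgaatcacggtTGAGTCAcccctttcgggg

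The TEAD letters stood once in the window of *Ccn1*, at −103 to −98 from the start, once in that of *Amotl2*, at −65 to −60, and at 2 places in that of *Ajuba*, at −186 to −181 and −164 to −159. *F3* had no TEAD match and 2 AP-1 matches, at −146 to −140 and −135 to −129. *Gadd45b* had none of the 3 motifs, and no CArG box was found in any of the 5 windows. Among 32544 distinct mouse promoters of the same length, 14.6% held GGAATG, 7.79% held TGANTCA and 1.64% held a CArG box. The match of *Amotl2* lies in an exon of *Amotl2* itself, since another of its transcripts starts upstream, and those of *F3* lie in an exon of the neighbouring gene *Gm43823*. The matches of *Ccn1* and *Ajuba* lie outside annotated transcripts. A match is a description of letters, and nothing was measured here of binding or of the enhancers.

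The method primes RNA at its poly(A) tail and counts unique molecular identifiers (UMIs), 1 per captured molecule, so that counts do not scale with transcript length. Library totals were 1311420 to 1883812 UMIs with NRG1, 1476750 to 1870130 with EREG and 1486253 to 1891243 with EGF, and 12141 to 13024 genes had a count. All 11 epithelial markers, among them *Epcam*, *Cdh1* and *Vil1*, had UMIs in every library. The 10 fibroblast and smooth muscle markers summed to 5.95 to 32.02 normalized counts per library, with *Des* and *Lum* at 0 and *Pdgfra* and *Foxl1* at 1 UMI each in the whole table. The immune markers summed to at most 11.9 and the endothelial markers to at most 5.23, with *Cd3e*, *Cd79a*, *Cdh5* and *Kdr* at 0. Mitochondrial RNAs took 0.565% to 0.578% of UMIs with NRG1, 0.637% to 0.799% with EREG and 0.596% to 0.604% with EGF in experiment 2, and at most 0.732% with NRG1, 0.847% to 1.02% with EREG and 0.979% to 1.195% with EGF in experiment 1. NRG1 thus lay below EGF in both, and the part of this difference in the results below was not tested. The replicate 2 libraries of all groups were sequenced together in a pool apart from replicates 1 and 3, which shared the other pool. Pool thus goes with replicate number. In experiment 2, replicate 3 of NRG1 and of EREG came from a tube and not from the plate.

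NRG1 raised 3 of the genes, *F3*, *Gadd45b* and *Ccn1*, each by less than 2-fold on average over both experiments, while *Ajuba* and *Amotl2* did not pass the test and *Ccn2* was hardly detected. With EREG against EGF 0 of the 5 tested genes passed, where only 1 of all 12159 genes did (0.00822%). With NRG1 against EGF 11.4% of all genes passed. Values are TMM-normalized UMI counts, that is, UMI counts scaled to a common library size of 1635937, and counting error alone is large for most of these genes. Fold changes come from edgeR's quasi-likelihood test, in a model of ligand, experiment and replicate number. A gene passed when its p, adjusted by Benjamini-Hochberg over the 12159 genes tested, was under 0.1. In such bulk samples, fewer cells of a type and less RNA per cell cannot be told apart.

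*Ccn1* (ENSMUSG00000028195, chromosome 3 from 145646976 to 145649981 of GRCm38, minus strand) encodes CYR61, a secreted matrix protein that binds integrins. In experiment 2 its normalized counts were 28.7, 33.5 and 29.8 with NRG1, 6.05, 5.65 and 8.93 with EREG, and 7.69, 13.0 and 12.5 with EGF. The 3 NRG1 libraries there stood well above the other 6, which reached 13.0 at most. In experiment 1 they were 14.2, 12.2 and 6.97 with NRG1, 6.32, 7.53 and 3.06 with EREG, and 10.9, 4.44 and 10.9 with EGF, and the 3 ligands overlapped. These values rest on 3 to 26 UMIs per library. Over both experiments *Ccn1* rose with NRG1 by 0.96 ± 0.29 against EGF on the log2 scale (± SE), a 1.95-fold difference (edgeR adjusted p = 0.0234). Without replicate 1 of EGF in experiment 2, the lowest EGF library there, the value was 0.79 and no longer passed (edgeR adjusted p = 0.115).

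By experiment, *Ccn1* rose by 1.46 ± 0.38 in experiment 2 (edgeR adjusted p = 0.00742), which became 1.21 without that same EGF library (edgeR adjusted p = 0.117). In experiment 1 the log2 difference was 0.32 ± 0.42 (edgeR adjusted p = 0.771). The difference between the experiments was 1.15 ± 0.58 and did not pass (edgeR adjusted p = 0.497, unadjusted p = 0.0499), so that a larger response in experiment 2 was not shown. Against EREG, *Ccn1* rose by 1.63 ± 0.31 over both experiments (edgeR adjusted p = 1.29e-04), a 3.09-fold difference, the largest of the 5 genes tested in that comparison. It was 2.14 ± 0.40 in experiment 2 (edgeR adjusted p = 4.35e-05) and 0.92 ± 0.47 in experiment 1 (edgeR adjusted p = 0.307). DESeq2 gave 2.17 for experiment 2 but no adjusted p.

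*Ccn2* (ENSMUSG00000019997, chromosome 10 from 24595442 to 24598683, plus strand) encodes connective tissue growth factor, a secreted relative of CYR61 and a common readout of YAP activity. It had 10 UMIs in all 18 libraries, at most 2 in any of them, and fell under the mean normalized count of 1 needed for the test. Summed over 6 libraries each, there were 3 UMIs with NRG1, 3 with EREG and 4 with EGF. Per total UMIs the ratio of NRG1 to EGF was 0.807, with an exact 95% interval of 0.118 to 4.77, and that of EREG to EGF was 0.751, with an interval of 0.110 to 4.44. These intervals cover counting error only, and differences within them were not detectable at this depth.

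*F3* (ENSMUSG00000028128, chromosome 3 from 121723537 to 121735048, plus strand) encodes tissue factor, the membrane receptor for coagulation factor VII, and is also used as a marker of subepithelial fibroblasts. In experiment 2 its normalized counts were 159, 169 and 165 with NRG1, 59.5, 58.4 and 61.5 with EREG, and 90.0, 90.7 and 96.3 with EGF. The 3 groups did not overlap there, with NRG1 highest and EREG lowest. The group means were 164 ± 4.92 with NRG1, 59.8 ± 1.58 with EREG and 92.3 ± 3.44 with EGF (SD, n = 3 each). This spread, 3.00%, 2.64% and 3.72% of the mean, was under the 8.76%, 12.8% and 10.9% that counting the UMIs of 1 library would give by itself. In experiment 1 the counts were 44.6, 25.3 and 14.8 with NRG1, 7.37, 12.6 and 9.19 with EREG, and 5.45, 11.5 and 12.5 with EGF. Every NRG1 library was again above every other one, but replicate 1 of NRG1 was 3-fold above replicate 3, and EREG and EGF overlapped.

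Over both experiments *F3* rose with NRG1 by 0.99 ± 0.17 against EGF, a 1.98-fold difference (edgeR adjusted p = 1.23e-05), and leaving out single libraries gave 0.86 to 1.08. Within experiments it was 0.83 ± 0.18 in experiment 2 (edgeR adjusted p = 0.00102) and 1.45 ± 0.32 in experiment 1 (edgeR adjusted p = 8.70e-04). The difference between these, −0.62 ± 0.37, did not pass (edgeR adjusted p = 0.609). Without replicate 1 of NRG1, the rise in experiment 1 was 0.97 (edgeR adjusted p = 0.108). Against EREG, *F3* rose by 1.47 ± 0.18, a 2.78-fold difference (edgeR adjusted p = 1.66e-09), with 1.46 ± 0.19 in experiment 2 (edgeR adjusted p = 3.20e-09) and 1.45 ± 0.32 in experiment 1 (edgeR adjusted p = 0.00130). Without replicate 1 of NRG1 the value of experiment 1 was 0.98 (edgeR adjusted p = 0.129).

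With EREG, *F3* was at −0.49 ± 0.19 relative to EGF over both experiments and did not pass (edgeR adjusted p = 0.741, unadjusted p = 0.0106). In experiment 2, where every EREG library was below every EGF library, the value was −0.63 ± 0.20 (edgeR adjusted p = 0.145). With replicate numbers blocked within each experiment, *F3* passed there as lower with EREG (edgeR adjusted p = 0.0623). Without replicate 1 of NRG1 or of EREG in experiment 1, or replicate 3 of EREG in experiment 2, it lay between −0.68 and −0.63 and passed (edgeR adjusted p = 0.0889, 0.0973 and 0.084). Over all genes 188, 196 and 529 passed in these fits, against 122 with every library. The libraries of experiment 1 are not part of this comparison, and leaving them out hardly moved the *F3* value. The change of the EREG response between the experiments was −0.62 ± 0.44 (edgeR adjusted p = 0.792). Fibroblast and smooth muscle markers, the lineage in which *F3* is used as a marker, summed in experiment 2 to 5.96 to 11.7 with NRG1, 5.95 to 32.02 with EREG and 16.5 to 20.4 with EGF. In experiment 1 the same sums were 14.2 to 23.7 with NRG1, 12.3 to 16.7 with EREG and 11.7 to 24.0 with EGF, so that in experiment 2 the sum with NRG1 lay below that with EGF and overlapped that with EREG, and in experiment 1 all 3 overlapped. The largest part of these sums was *Acta2*, with 184 UMIs in the whole table, whereas *Pdgfra* and *Foxl1* had 1 each. The sums thus hardly measure subepithelial fibroblasts, and the part of such cells in the *F3* level was not tested.

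*Gadd45b* (ENSMUSG00000015312, chromosome 10 from 80930073 to 80932204, plus strand) encodes a small stress-response protein that acts on the p38 and JNK kinase cascades. In experiment 2 its normalized counts were 107, 85.1 and 112 with NRG1, 75.6, 73.5 and 65.5 with EREG, and 75.8, 61.5 and 74.8 with EGF. In experiment 1 they were 68.6, 30.2 and 34.0 with NRG1, 18.96, 14.2 and 21.4 with EREG, and 20.9, 24.8 and 18.4 with EGF. In both experiments every NRG1 library was above every EREG and every EGF library, while EREG and EGF overlapped. *Gadd45b* rose with NRG1 by 0.72 ± 0.16 against EGF, a 1.64-fold difference (edgeR adjusted p = 0.00154), and by 0.77 ± 0.16 against EREG, a 1.71-fold difference (edgeR adjusted p = 6.47e-04). Leaving out single libraries gave 0.55 to 0.81 against EGF, and each of these values passed.

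Within experiments the *Gadd45b* difference between NRG1 and EGF was 0.52 ± 0.20 in experiment 2 (edgeR adjusted p = 0.118) and 1.00 ± 0.25 in experiment 1 (edgeR adjusted p = 0.00492), and the difference between them, −0.47 ± 0.32, did not pass (edgeR adjusted p = 0.667). Replicate 1 of NRG1 in experiment 1 stood at least 2-fold above the other NRG1 libraries there, and without it the value of experiment 1 was 0.62 (edgeR adjusted p = 0.259). The value of experiment 2 passed with that library left out (edgeR adjusted p = 0.0955), and also without replicate 1 of EREG in experiment 1 or replicate 3 of EREG in experiment 2 (edgeR adjusted p = 0.0981 and 0.0956). None of these libraries is part of that comparison, and over all genes 958, 965 and 982 passed, against 845 with every library. Against EREG the *Gadd45b* difference was 0.50 ± 0.19 in experiment 2 (edgeR adjusted p = 0.105) and 1.24 ± 0.26 in experiment 1 (edgeR adjusted p = 6.26e-04). With DESeq2's size factors in edgeR, the value of experiment 2 was 0.52 and passed (edgeR adjusted p = 0.0895). With the usual factors it passed when 1 of 5 single libraries was left out (lowest edgeR adjusted p = 0.0827), most of them from experiment 1 and so outside this comparison.

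*Ajuba* (ENSMUSG00000022178, chromosome 14 from 54567472 to 54577558, minus strand) encodes a LIM-domain scaffold that binds LATS kinases and restrains them. In experiment 2 its normalized counts were 9.13, 16.8 and 9.54 with NRG1, 17.1, 11.3 and 8.93 with EREG, and 10.98, 5.40 and 14.7 with EGF. In experiment 1 they were 3.27, 4.08 and 13.1 with NRG1, 4.21, 9.21 and 5.11 with EREG, and 6.36, 5.32 and 5.85 with EGF. The ligands overlapped in both experiments, with replicate 3 of NRG1 in experiment 1 above the rest of that experiment. *Ajuba* averaged 9.31 ± 5.17 with NRG1, 9.31 ± 4.67 with EREG and 8.11 ± 3.88 with EGF (SD, n = 6 each), and the log2 difference between NRG1 and EGF was 0.21 ± 0.35 (edgeR adjusted p = 0.802), which became −0.093 without replicate 3 of NRG1 in experiment 1. Of 443 windows of 61 nucleotides at the 3′ end of its transcripts, 30 (6.77%) also occur in transcripts of other genes, whereas the other 5 genes shared 0%.

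*Amotl2* (ENSMUSG00000032531, chromosome 9 from 102716672 to 102733418, plus strand) encodes angiomotin-like 2, a junction protein that binds YAP and retains it outside the nucleus. In experiment 2 its normalized counts were 5.22, 12.9 and 9.54 with NRG1, 8.06, 4.71 and 7.93 with EREG, and 7.69, 3.24 and 3.40 with EGF. In experiment 1 they were 6.53, 1.63 and 2.61 with NRG1, 2.11, 2.51 and 6.13 with EREG, and 2.73, 3.55 and 1.67 with EGF. All 3 ligands overlapped in both experiments, at 2 to 10 UMIs per library. *Amotl2* averaged 6.40 ± 4.25 with NRG1, 5.24 ± 2.59 with EREG and 3.71 ± 2.06 with EGF (SD, n = 6 each). The log2 difference between NRG1 and EGF, 0.71 ± 0.46, was as large as that of *Gadd45b* but did not pass at this depth (edgeR adjusted p = 0.408).

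**Figure D1:**
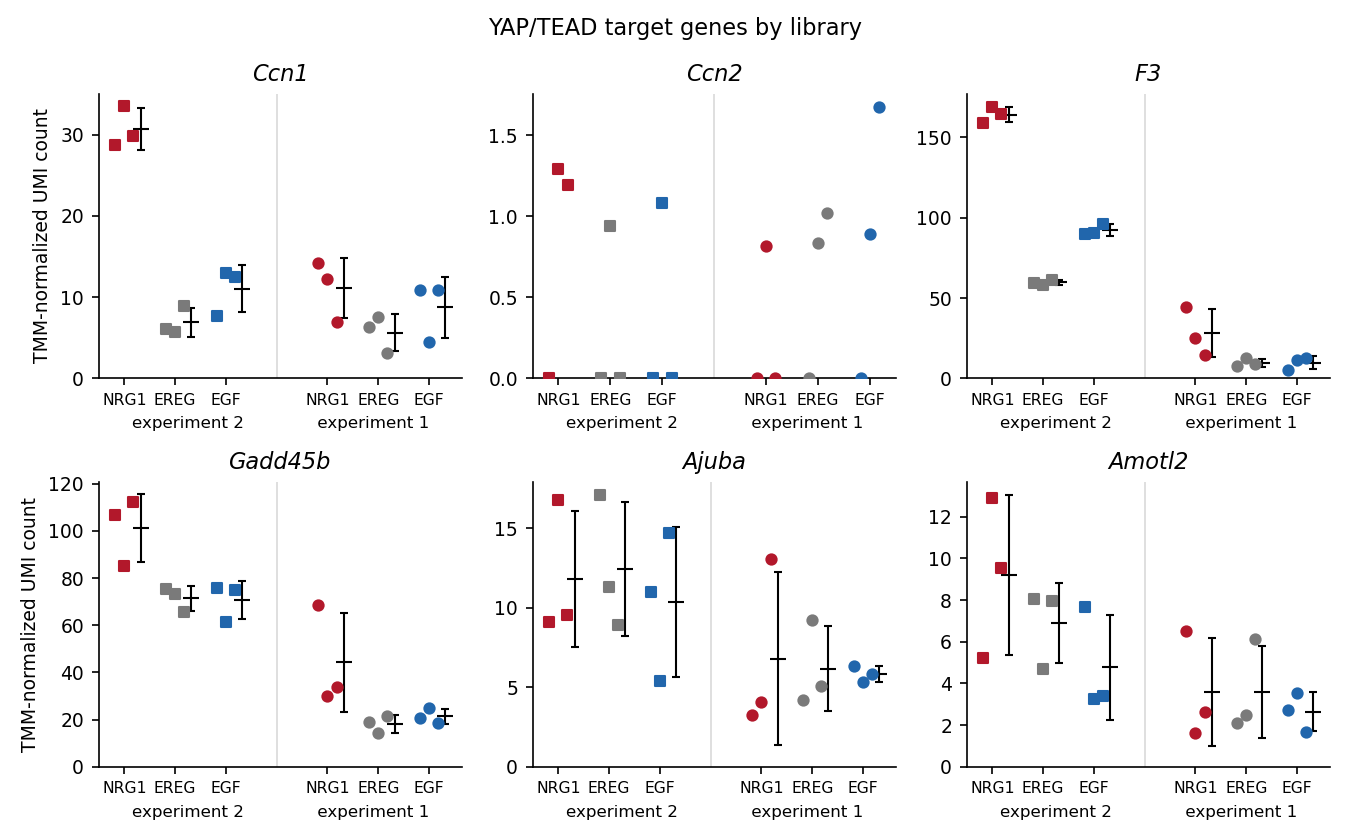
TMM-normalized UMI counts (y axis, linear, from 0, a scale of its own in each panel) of the 6 genes with NRG1, EREG and EGF. Each point is 1 library, squares are experiment 2 and circles experiment 1, and black bars give mean ± SD of 3 libraries, left out for *Ccn2*, which had 10 UMIs in all. *F3* stands at 159 to 169 with NRG1, 58.4 to 61.5 with EREG and 90.0 to 96.3 with EGF in experiment 2, while the ligands overlap for *Ajuba* and *Amotl2*.

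Between NRG1 and EGF, 3 of the 5 genes tested were higher and 0 were lower, where 11.4% of all 12159 genes passed, 6.04% higher and 5.39% lower. The median log2 fold change of the 5 genes was 0.72, against −0.013 over all genes. Every NRG1 library lay above every EGF library for *Ccn1*, *F3* and *Gadd45b* in experiment 2 (11% of all genes) and for *F3* and *Gadd45b* in experiment 1 (10.1%). *F3* and *Gadd45b* were so ordered in both experiments, as were 2.86% of all genes. Tested by experiment, 2 of the 5 genes passed in experiment 2 (*Ccn1* and *F3*, with 6.95% of all genes) and 2 in experiment 1 (*F3* and *Gadd45b*, with 7.98%). Without replicate 1 of NRG1 the count of experiment 1 was 0, and without replicate 1 of EGF that of experiment 2 was 1 (*F3*).

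Between EREG and EGF, 0 of the 5 genes passed edgeR's test, where 1 of the 12159 genes did (0.00822%). At an unadjusted p under 0.05 there was 1 gene of the 5, *F3*, against 5.46% of all genes, and DESeq2 called 0 of the 5. The log2 difference of *Ccn1* was −0.66 ± 0.35 (edgeR adjusted p = 0.924). In experiment 2, 0 of the 5 passed by either tool (1% of all genes with edgeR), with *F3* alone at an unadjusted p under 0.05 (9.87% of all genes) and past the threshold with blocks within experiment, as above. There every EREG library lay below every EGF library for *F3*, as for 7.73% of all genes. In experiment 1, 0 of the 5 passed by either tool, and 0% of all genes (4.24% at an unadjusted p under 0.05).

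Between NRG1 and EREG, 3 of the 5 genes were higher and 0 lower, where 11.3% of all genes passed, 6.55% higher and 4.75% lower. These were again *F3*, *Ccn1* and *Gadd45b*, with a median of 0.77 over the 5 genes and −0.023 over all genes. This comparison and that with EGF share the NRG1 libraries, so they are not independent of each other. Every NRG1 library lay above every EREG library for *Ccn1*, *F3* and *Gadd45b* in experiment 2 (11.5% of all genes) and for *F3* and *Gadd45b* in experiment 1 (8.64%), and for both of these genes in both experiments (2.42%). By experiment, *Ccn1* and *F3* passed in experiment 2 (10.9% of all genes) and *F3* and *Gadd45b* in experiment 1 (6.92%), where the count was 1 without replicate 1 of NRG1. With DESeq2 it was 1 in experiment 2, since *Ccn1* had no adjusted p.

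**Figure D2:**
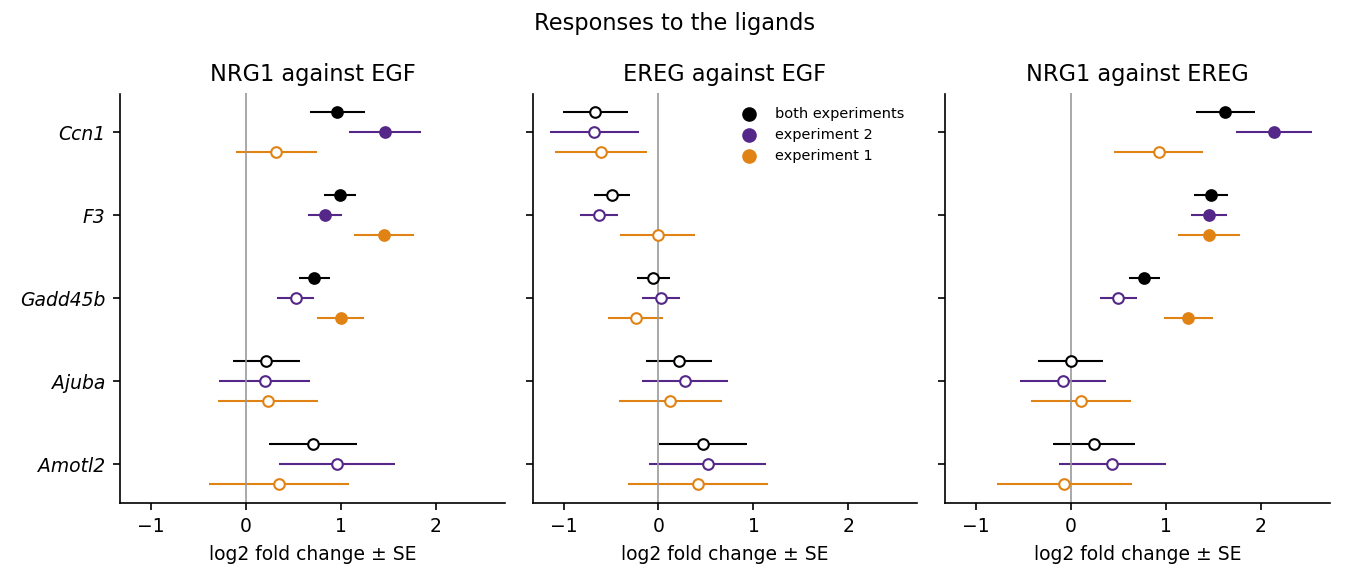
Log2 fold changes ± SE (x axis) of the 5 genes tested, for NRG1 against EGF, EREG against EGF and NRG1 against EREG, over both experiments (black), in experiment 2 (purple) and in experiment 1 (orange). Filled points passed at an adjusted p under 0.1 and open points did not. *F3* is filled at 0.99, 0.83 and 1.45 for NRG1 against EGF, and every point of EREG against EGF is open.

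The response to NRG1 differed between the experiments for 0 of the 5 genes by edgeR's interaction test (1.44% of all genes), with *Ccn1* alone at an unadjusted p under 0.05 (10.1% of all genes) and 0 by DESeq2. For the response to EREG the count was 0 of 5 (0.074% of all genes), 0 at an unadjusted p under 0.05 (7.42% of all genes) and 0 by DESeq2. The level from which 2 of the 5 genes responded did differ, a share near the 33.5% of all genes. With EGF, *F3* was 9.19-fold higher in experiment 2 than in experiment 1 (log2 difference 3.20 ± 0.27, edgeR adjusted p = 5.50e-19), at 92.3 ± 3.44 against 9.84 ± 3.83 normalized counts (SD, n = 3 each). *Gadd45b* was 3.28-fold higher (1.72 ± 0.24, edgeR adjusted p = 2.40e-09), at 70.7 ± 7.94 in experiment 2 and 21.4 ± 3.25 in experiment 1. *Ccn1*, *Ajuba* and *Amotl2* did not pass. These 2 of 5 genes stand beside 33.5% of all genes that passed in this comparison. The mouse, the culture and the day of the experiment cannot be told apart. The *F3* level with NRG1 in experiment 1, 28.3 ± 15.1, was thus below its level with EGF in experiment 2.

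The measured levels of the genes were not alike across libraries. *Ajuba* had 3 to 17 UMIs per library and *Amotl2* 2 to 10, with counting errors of 33.9% and 45.5% at their mean counts. Such error weakens a correlation, so that low values for these 2 genes cannot be told apart from noise. After the mean of each experiment was subtracted, the log2 levels of *F3* and *Gadd45b* correlated over the 18 libraries with r = 0.763, those of *Ccn1* and *F3* with r = 0.697 and those of *Ccn1* and *Gadd45b* with r = 0.443. *Amotl2* reached 0.436 with *Gadd45b* and 0.271 with *F3*, and *Ajuba* lay between −0.196 and 0.0735 with each of the others. These values describe the ligand response, which the points share along with the libraries and their depth. Among 8962 genes that averaged 10 normalized counts or more, the closest to *F3* were *Abcc3* (r = 0.946), an exporter of conjugates, *Cbr1* (0.932), a carbonyl reductase, and *Gsta3* (0.925), a glutathione transferase. The closest to *Gadd45b* were *Ero1l* (0.909), an oxidase of the endoplasmic reticulum, *Areg* (0.897), the EGFR ligand amphiregulin, and *Cdkn1a* (0.888), the cell cycle inhibitor p21. *Ccn1* came closest to *Ppp1r12a* (0.899), a myosin phosphatase subunit, *Gpd2* (0.885) and *Tmigd1* (0.878). For *Ajuba* the values were lower, at 0.808 with *Sde2*, 0.721 with *Bdp1* and 0.699 with *Hnrnpdl*, as they were for *Amotl2*, at 0.705 with *Foxp4*, 0.692 with *Mef2d* and 0.688 with *Yy1*.

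Of 17 other YAP and TAZ targets, such as *Ankrd1*, *Axl* and *Crim1*, 9 could be tested. With NRG1 against EGF 1 of the 9 was higher and 0 lower, with a median of 0.15, where 6.04% of all genes were higher and 5.39% lower. This was *Dock5*, an exchange factor for the GTPase Rac, at 34.0 ± 13.3 with NRG1 and 19.4 ± 4.68 with EGF in experiment 2 and at 20.5 ± 8.25 with NRG1 and 14.1 ± 2.33 with EGF in experiment 1. Its log2 fold change was 0.68 ± 0.23 (edgeR adjusted p = 0.0522), and it no longer passed without replicate 1 of EGF in experiment 2 (edgeR adjusted p = 0.161), replicate 1 of NRG1 in experiment 2 (0.147), replicate 2 of NRG1 in experiment 2 (at the threshold) or replicate 2 of NRG1 in experiment 1 (0.173). Among the 8 that did not pass, *Lats2* (0.81 ± 0.52, edgeR adjusted p = 0.396) and *Myof* (0.71 ± 0.54, edgeR adjusted p = 0.499) had log2 differences of the size of *Gadd45b* with wider errors, and a further 8 of the 17 were too low to test. Within either experiment 0 of the 9 passed by edgeR, beside 6.95% of all genes in experiment 2 and 7.98% in experiment 1. With EREG against EGF 0 of the 9 passed by edgeR (0.00822% of all genes). With NRG1 against EREG only *Dock5* did, as higher (6.55% of all genes).

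Of 24 genes of the Hippo pathway and the TEAD family, 23 could be tested, and with NRG1 against EGF 0 were higher and 2 lower, with a median of 0.067, beside 6.04% of all genes higher and 5.39% lower. *Vgll4*, which competes with YAP for TEAD, fell by 0.33 on the log2 scale (SE 0.09, edgeR adjusted p = 0.0172), and did not pass when counts were summed per ligand and experiment (edgeR adjusted p = 0.183). *Wtip*, a relative of *Ajuba*, fell by 0.72 (SE 0.27, edgeR adjusted p = 0.0947), but passed in 9 of the 18 fits that each left out 1 library and did not pass with DESeq2 (DESeq2 adjusted p = 0.158), with no replicate block (edgeR adjusted p = 0.102) or with summed counts (edgeR adjusted p = 0.180). By experiment, 1 of the 23 was higher and 0 lower in experiment 2 (6.95% of all genes passed), and 0 were higher and 2 lower in experiment 1 (7.98%). The gene of experiment 2 was *Tead1* (1.01 ± 0.31, edgeR adjusted p = 0.0376), which did not pass without replicate 3 of NRG1 (edgeR adjusted p = 0.458) or replicate 1 of EGF there (0.198), or with DESeq2 (0.103). Those of experiment 1 were *Vgll4* and *Amot*, a relative of *Amotl2*, which fell by 0.66 (SE 0.17, edgeR adjusted p = 0.00856). The response to NRG1 differed between the experiments for 1 of the 23, *Tead1* (1.44% of all genes). With EREG against EGF 0 of the 23 passed (0.00822% of all genes). With NRG1 against EREG, *Vgll4* was lower (4.75% of all genes) and the other 22 did not pass.

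Of 15 paralogues and partners of the 6 genes, 8 could be tested. With NRG1 against EGF 1 of the 8 was higher and 2 lower, with a median of −0.33, where 6.04% of all genes were higher and 5.39% lower. *Gadd45a*, a relative of *Gadd45b*, rose with NRG1 by 0.80 ± 0.14 (edgeR adjusted p = 4.34e-05), with 126 ± 16.8 with NRG1 and 73.8 ± 16.3 with EGF in experiment 2 and 55.3 ± 13.6 with NRG1 and 31.1 ± 5.96 with EGF in experiment 1. *Gadd45g*, another relative, did not pass. It was at 30.4 ± 9.39 with NRG1 and 29.6 ± 9.60 with EGF in experiment 2. In experiment 1 it was at 20.0 ± 11.6 with NRG1 and 26.3 ± 3.93 with EGF. *Tfpi*, the inhibitor of the complex of tissue factor and factor VII, fell by 0.52 (SE 0.19, edgeR adjusted p = 0.0861), but passed in 10 of the 18 fits without 1 library and not with DESeq2 (DESeq2 adjusted p = 0.142) or summed counts (edgeR adjusted p = 0.180). *Wtip* also belongs to this list, and the other 5 genes, *Gadd45g* among them, did not pass. With EREG against EGF 0 of the 8 passed (0.00822% of all genes), and with NRG1 against EREG *Gadd45a* was higher (6.55% of all genes) and 7 did not pass.

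Of 30 immediate early genes and targets of serum response factor, 26 were tested. With NRG1 against EGF 12 of the 26 were higher and 0 lower, with a median of 0.39, where 6.04% of all genes were higher and 5.39% lower. By experiment, 13 were higher and 0 lower in experiment 2 (6.95% of all genes passed), and 6 were higher and 1 lower in experiment 1 (7.98%). *Fos*, a subunit of AP-1, rose by 1.33 ± 0.20 (edgeR adjusted p = 1.35e-06), and the actin-associated genes *Tagln2* (0.50 ± 0.08), *Cnn2* (0.85 ± 0.14) and *Actb* (0.38 ± 0.07) rose as well (edgeR adjusted p = 2.43e-06, 7.83e-06 and 7.85e-05). *Fos* was at 105 ± 14.1 with NRG1 and 41.1 ± 13.3 with EGF in experiment 2, and at 31.4 ± 12.2 with NRG1 and 12.2 ± 4.91 with EGF in experiment 1. The response to NRG1 differed between the experiments for 5 of the 26 (1.44% of all genes), larger in experiment 2 for 3 and smaller for 2. *Jun*, another AP-1 subunit, was at 194 ± 19.8 with NRG1 and 127 ± 4.21 with EGF in experiment 2, and at 90.4 ± 14.3 with NRG1 and 152 ± 21.5 with EGF in experiment 1 (SD, n = 3 each). It rose by 0.61 ± 0.15 in experiment 2 (edgeR adjusted p = 0.00350) and fell by 0.76 in experiment 1 (SE 0.15, edgeR adjusted p = 1.47e-04). With EREG against EGF 0 of the 26 passed (0.00822% of all genes). With NRG1 against EREG 13 were higher and 0 lower, where 6.55% of all genes were higher and 4.75% lower. Of the 11 epithelial markers, 3 were higher with NRG1 than with EGF and 3 lower, beside 6.04% and 5.39% of all genes. Among the higher ones were *Krt19* (0.45 ± 0.07, edgeR adjusted p = 1.98e-06) and *Krt8* (0.46 ± 0.07, edgeR adjusted p = 2.17e-06). *Lyz1* of Paneth cells fell by 0.40 (SE 0.07, edgeR adjusted p = 1.18e-05) and *Chga* of enteroendocrine cells by 0.48 (SE 0.12, edgeR adjusted p = 0.00718), as did *Lgr5* of stem cells by 0.38 (SE 0.12, edgeR adjusted p = 0.0320), and 5 did not pass. The *Lgr5* call was lost with summed counts (edgeR adjusted p = 0.207) and without replicate 2 of NRG1 (0.142) or replicate 1 or 2 of EGF in experiment 1 (0.110 and 0.154). The part of these marker changes in the levels of *F3*, *Gadd45b* and *Ccn1* was not tested.

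**Figure D3:**
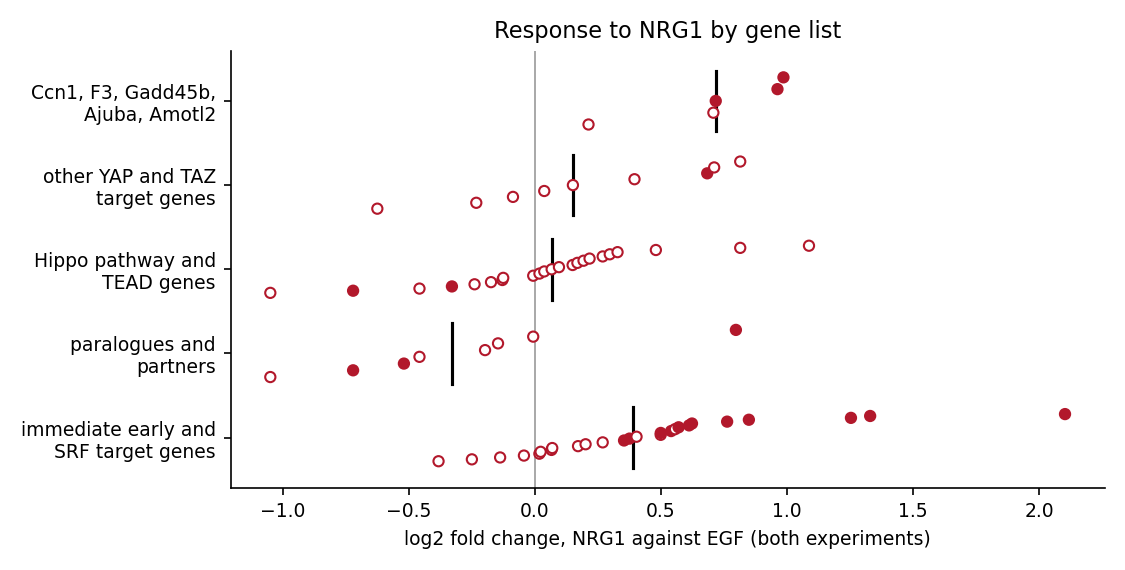
Log2 fold changes of NRG1 against EGF over both experiments (x axis) for each tested gene of 5 lists, with filled points for genes that passed at an adjusted p under 0.1, open points for those that did not, and a black line at the median of each list. The medians are 0.72 for *Ccn1*, *F3*, *Gadd45b*, *Ajuba* and *Amotl2*, 0.15 for other YAP and TAZ targets, 0.067 for Hippo pathway and TEAD genes, −0.33 for paralogues and partners and 0.39 for immediate early genes and targets of serum response factor. *Wtip*, *Amot*, *Amotl1*, *Limd1* and *Lats2* stand in more than 1 list.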

How the data were processed

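Per the labels and the methods, the authors primed RNA with a barcoded oligo-dT primer, aligned the reads with STAR 2.7.8a on GRCm38, as the processing notes name them, and deposited the UMI counts of each gene and library without normalization. Ligand, experiment and replicate of each column came from the deposited sample sheet (unit: other, no measurement), because both GEO samples are sequencing pools. The annotation release was not given in the sources used here, and symbols came from GENCODE for GRCm38 (30934 genes matched, 119 not). One reporter row with 6 counts (2.05e-05% of counts) was left out. No 2 replicates agreed within sampling noise (chi-square per degree of freedom 1.52 to 4.14 over 18 pairs).

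The fits used edgeR 4.0.16 under R 4.3.3 with limma 3.58.1 (TMM, robust quasi-likelihood fit, ligand, experiment and replicate number, 12 residual degrees of freedom, 10 with the interaction of ligand and experiment). A gene was tested if it had 5 counts or more over all libraries and averaged 1 normalized count or more. The SE was obtained as log2 fold change over root F. The code was tested on simulated data. The replicate number was kept because the study's design held it. Same-numbered libraries deviated together within an experiment (median r = 0.122, 0.019 to 0.167), but not every pair exceeded 0.1. Across the experiments, which share the replicate term in the main fit, the median was 0.0357 (−0.0646 to 0.171). Blocks within experiment were therefore also fitted. Likeness used log2 normalized CPM with 0.5 added. Alternatives were DESeq2 1.42.0, its size factors, no filter, other replicate terms, fewer ligands, summed counts, a threshold of 0.05 and leaving out each library. All 6 genes were named, with up to 4 passing genes per list by adjusted p in NRG1 against EGF, and 3 closest genes per tested gene. *Tead1*, *Jun*, *Amot*, *Lats2*, *Myof*, *Lgr5*, *Gadd45g* and *Acta2* were named after their values were seen. The genes and lists were chosen with earlier results of these data known. Intervals of counting do not cover variation between cultures.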

Additional observations from a re-analysis of the deposited data

Results flagged for a closer look

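*Amotl2* in replicate 1 of EGF in experiment 2, at 7.69 normalized counts (7 UMIs), stood apart from the other 5 EGF libraries, which reached 3.55 at most. It was found among 18 groups of 6 libraries (6 genes with 3 ligands). For 6 normally distributed values of a single population, the rule picks out about 1 in 20 groups by chance. That rate was not worked out for low counts or for groups of mixed level, so how unusual 1 among 18 is was not tested. Each group held both experiments, and the 3 libraries of a single experiment were not examined by themselves. Replicate 1 of NRG1 in experiment 1, at 44.6 for *F3* against 25.3 and 14.8 in the other NRG1 libraries there, was therefore not picked out.

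*Tead1*, one of the TEAD factors, responded differently to NRG1 in the 2 experiments (interaction 1.60 ± 0.43 on the log2 scale, edgeR adjusted p = 0.0388). Its normalized counts were 35.7 ± 15.5 with NRG1 and 17.7 ± 1.43 with EGF in experiment 2, and 19.9 ± 4.80 with NRG1 and 29.5 ± 6.43 with EGF in experiment 1 (SD, n = 3 each). The difference no longer passed without replicate 3 of NRG1 (1.23, edgeR adjusted p = 0.296) or replicate 1 of EGF (adjusted p = 0.117) in experiment 2, or replicate 2 of EGF (0.276) or of NRG1 (0.138) in experiment 1. DESeq2 gave 1.62 with no adjusted p.

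*Jun* also responded differently to NRG1 in the 2 experiments (interaction 1.37 ± 0.21, edgeR adjusted p = 4.98e-06), with NRG1 above EGF in experiment 2 and below it in experiment 1. Without single libraries the value was 1.25 or more, and each of these passed.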

How the results depend on the processing

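The count of the 5 tested genes that passed stayed at 3 for NRG1 against EGF and NRG1 against EREG, and at 0 for EREG against EGF and both interactions, under every alternative, with 1 exception: without replicate 1 of EGF in experiment 2 it was 2 for NRG1 against EGF, so that leaving out single libraries gave 2 to 3. With the replicate block left out or fitted within experiments, these counts did not change. Within experiments, where the alternatives, like those for experiment 2 against experiment 1, were chosen after seeing the data, leaving out single libraries gave 0 to 2 (experiment 1) and 1 to 3 (experiment 2) for NRG1 against EGF, 0 to 1 for EREG against EGF in experiment 2, and 1 to 2 for NRG1 against EREG in experiment 1. With a replicate block within experiment, *F3* passed for EREG against EGF in experiment 2 (count 1, edgeR adjusted p = 0.0623) and *Gadd45b* for NRG1 against EGF and EREG there (0.086 and 0.0763). DESeq2 gave a count of 1 for NRG1 against EREG in experiment 2. Without single libraries *Ajuba* lay between −0.093 and 0.35 for NRG1 against EGF, and *Ccn1* between −0.073 and 0.61 in experiment 1. The cause of these shifts was not tested.

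Counts over all genes moved more. For EREG against EGF, 1 gene became 26 with no filter, 25 with only the ligands compared, 16 with blocks within experiment, 6 with DESeq2 and 0 with summed counts. In experiment 2 alone 122 became 27 with no replicate block and 285 with blocks within experiment, and in experiment 1 0 became 1 with no filter and 2 with those blocks. The EREG interaction gave 9, against 49 with no filter, 0 with no block, 99 with blocks within experiment and 14 with DESeq2, and the NRG1 interaction 175, against 92 and 296 with those replicate terms. Summed counts gave 739 for NRG1 against EGF (1390) and 733 for NRG1 against EREG (1374), DESeq2 gave 553 for NRG1 against EREG in experiment 1 (841), and blocks within experiment 2296 for experiment 2 against experiment 1 (4068). Leaving out single libraries moved these counts further. For EREG against EGF they gave 0 (without replicate 2 of EREG in experiment 2) to 43 (replicate 1 of EREG, experiment 1), and within experiment 2, 2 (replicate 1 of EREG there) to 529 (replicate 3). The EREG interaction had 0 to 246, the highest without that same replicate 3, and the NRG1 interaction 96 (replicate 2 of NRG1, experiment 1) to 242. For NRG1 against EGF they were 1077 to 1548 over both experiments, 514 to 982 in experiment 2 (lowest without replicate 1 of EGF) and 546 to 1099 in experiment 1 (replicate 2 of EGF). For NRG1 against EREG they were 1093 to 1529, 758 to 1591 (replicate 1 of EREG) and 464 to 951 (replicate 2 of EREG). At 2 to 26 UMIs per library, depth limits *Ccn1*, *Ajuba* and *Amotl2*.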
